A study of Drosophila melanogaster with 12 samples.

Results

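The Yellow genes of Drosophila melanogaster are described here across 4 groups of whole adult flies, with most room given to yellow-b on chromosome arm 2L. The family was chosen by the measured fall of yellow-b below wildtype, and its members were then taken by gene name, whatever their own values. Of 10 names, 7 had counts in all 12 libraries and passed the filter on low counts: yellow-b, yellow-c, yellow-d, yellow-e, yellow-f, yellow-f2 and yellow-h. The names y, yellow-d2 and yellow-k are not analysed here. The 7 genes stand among 12982 genes with counts in all 12 libraries, 12809 of which were tested.

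Yellow proteins are secreted proteins of insects, related to the major royal jelly proteins of the honeybee. The founding gene y is needed for black melanin in the cuticle and also acts in male courtship. In Drosophila the products of yellow-f and yellow-f2 convert dopachrome, a step of melanin synthesis, and yellow-g acts in the eggshell. In the silkworm, loss of yellow-e alters larval pigmentation. No role is given here for the products of yellow-b, yellow-c, yellow-d and yellow-h.

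Whole Canton S adults aged 10 to 11 days gave the polyA RNA that was sequenced. There were 3 libraries in each of 4 groups. Het flies had the genotype AKHR +/- and no obese parent, paternal flies the same genotype and an obese father, and maternal flies the same genotype and an obese mother. Wildtype flies had neither the mutation nor an obese parent. The labels used here do not give the kind of AKHR allele, the sex, the number of flies in a library or the direction of the crosses. The replicates are described as biologically and experimentally independent, with 1 sample set from each experiment; that the numbers in the titles mark these sets is not stated.

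Depth was 17212029 to 21370713 listed reads in each library. The product of AkhR (listed as GRHR), the gene named in the genotype, is the receptor of a hormone that mobilises fat. AkhR averaged 79.0 ± 6.59 CPM for het, 78.4 ± 4.08 for paternal and 79.8 ± 4.52 for maternal flies, against 82.3 ± 4.33 CPM in wildtype (SD, n = 3 each). CPM here is the read count scaled to a common library size, with TMM factors that correct for differences in library makeup. A count over the whole gene does not check an allele of unknown kind. The 3 yolk protein genes, markers of the female fat body and follicle, summed to between 12 and 18 CPM over the 12 libraries. The 6 male accessory gland markers summed to between 2677 and 3362 CPM. Of 5 listed ovary markers 1, nos, was analysed here, at 1.02 to 3.07 CPM. Maternal replicate 1 stood apart, with 6.49% of its reads on ribosomal protein genes, against 5.56 to 5.94% in the other 11 libraries.

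Per length, the family spanned a wide range of levels in these flies. The deposited FPKM (fragments per kilobase of gene, scaled to library depth), averaged over the 12 libraries, was 83.7 for yellow-c, 43.9 for yellow-d, 41.3 for yellow-f2, 26.8 for yellow-e, 8.70 for yellow-h, 7.04 for yellow-b and 6.31 for yellow-f. In this order yellow-d and yellow-f2 overlapped, at 40.5 to 47.5 FPKM for yellow-d and 38.3 to 43.7 FPKM for yellow-f2. Among the 3 low genes yellow-b, at 5.22 to 10.2 FPKM, overlapped both yellow-h, at 8.18 to 9.78 FPKM, and yellow-f, at 5.40 to 7.32 FPKM. Each of the other neighbours in the order was separate over the 12 libraries. The position of yellow-b differed between groups. In wildtype its mean of 9.42 ± 1.11 FPKM stood beside 9.21 ± 0.247 FPKM for yellow-h. In het flies yellow-b had 6.03 ± 0.482 FPKM and stood nearer to yellow-f, at 5.69 ± 0.248 FPKM (SD, n = 3 each). Of all 12982 genes, 34.8% had a lower mean FPKM than yellow-b and 89.2% had a lower one than yellow-c.

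**Figure D1:**
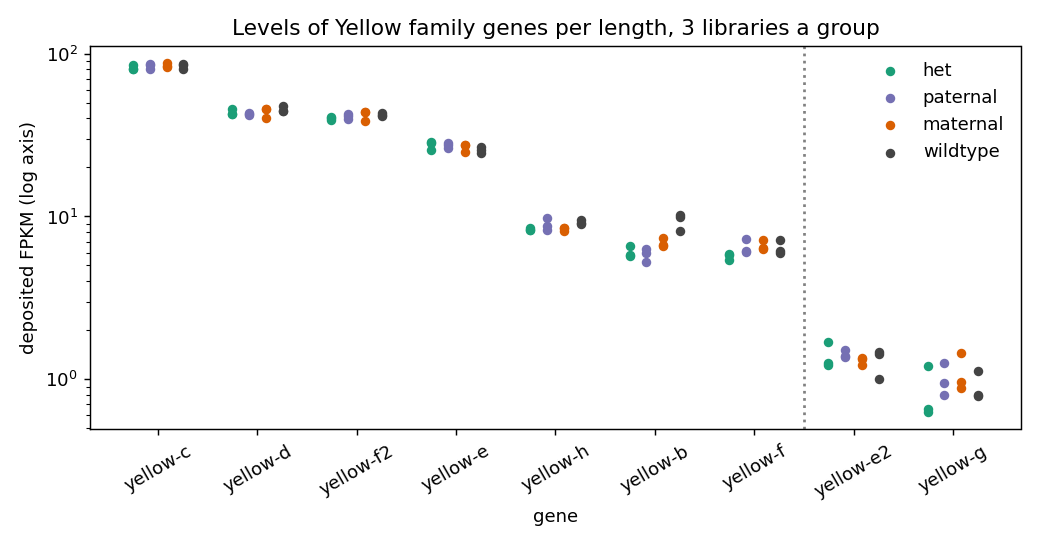
Deposited FPKM of Yellow family genes on a log axis, with 1 point per library and the groups in the order het, paternal, maternal and wildtype. The 7 members lie left of the dotted line and the low genes yellow-e2 and yellow-g right of it; yellow-b is the gene whose wildtype points sit above those of the other groups, at 8.16 to 10.2 FPKM.

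The fall of yellow-b is what brought the family forward, so its values against wildtype are a description and carry no test. The gene (FBgn0032601) lies on the plus strand of 2L at chr2L:16754336-16758283 of dm3, with 1659 bases of exons in a span of 3948. It had 201, 193 and 172 reads in het replicates 1 to 3, 197, 170 and 185 in paternal, 195, 219 and 215 in maternal, and 333, 308 and 268 in wildtype replicates. As CPM this was 10.8, 9.63 and 9.43 in het, 10.4, 9.92 and 8.57 in paternal and 11.1, 10.9 and 12.3 in maternal libraries, against 17.1, 16.6 and 13.7 in wildtype. All 9 libraries of the AKHR +/- groups lay below all 3 of wildtype, and maternal replicate 3 came closest to the lowest wildtype library, replicate 3. Over all tested genes, edgeR called 0.593% between het and wildtype, 0.523% between paternal and wildtype and 0.344% between maternal and wildtype flies; libraries lay below all wildtype ones for 9.63%, 9.86% and 7.86% in the same order. Nothing is read from these shares for a gene chosen on the same contrasts.

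**Figure D2:**
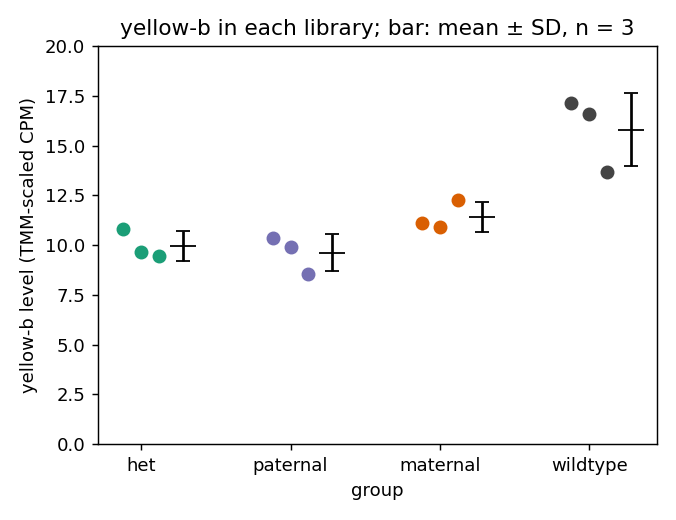
Level of yellow-b in TMM-scaled CPM (linear axis from 0), with 1 point per library and the mean ± SD of 3 libraries beside each group. Points lie at 9.43 to 10.8 in het, 8.57 to 10.4 in paternal, 10.9 to 12.3 in maternal and 13.7 to 17.1 CPM in wildtype flies.

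The mean level of yellow-b was 9.96 ± 0.747 CPM for het, 9.62 ± 0.939 for paternal and 11.4 ± 0.744 for maternal flies, against 15.8 ± 1.84 CPM in wildtype (SD, n = 3 each). The log2 change in the edgeR fit was -0.66 (SE 0.0977) for het, -0.72 (SE 0.0981) for paternal and -0.47 (SE 0.0963) for maternal flies over wildtype. These correspond to 63.1%, 60.8% and 72.3% of the wildtype level. With each library left out in turn, the change ranged from -0.76 to -0.60 for het, from -0.81 to -0.64 for paternal and from -0.56 to -0.40 for maternal flies. The 3 comparisons share the same wildtype libraries. The authors' deposited tables list smaller log2 values for yellow-b, -0.36 for het, -0.38 for paternal and -0.26 for maternal flies over wildtype. The labels used here do not say how these were estimated.

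Within a library, yellow-b can be set against its own family, which needs no scaling between libraries. It had 3.18, 2.97 and 2.85 reads per 100 reads of the other 6 members in het libraries, 3.02, 2.92 and 2.63 in paternal and 3.17, 3.19 and 3.72 in maternal libraries, against 4.97, 4.94 and 3.87 in wildtype. The lowest wildtype library stood close to the highest maternal one but above it. Het libraries overlapped both paternal and maternal ones, while paternal libraries all lay below maternal ones. Against yellow-c alone, the other member on 2L, the ratio was 7.99 ± 0.368 reads per 100 for het, 7.54 ± 0.435 for paternal and 8.85 ± 0.678 for maternal flies, against 12.3 ± 1.73 in wildtype (SD, n = 3 each).

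At this depth counting error alone gives yellow-b a spread of 0.10 on the log2 scale between libraries, and the spread observed within groups was 0.13. In RNA of whole flies, fewer cells that express a gene and less RNA per cell cannot be told apart. Summed levels of markers of several organs were also apart between the AKHR +/- groups and wildtype. The 6 accessory gland markers, among them Acp26Aa and Acp70A, summed to 2714 to 2860 CPM in het, 2735 to 2803 in paternal and 2677 to 2957 in maternal libraries, against 3101 to 3362 CPM in wildtype. For the 6 photoreceptor markers the sums were 8770 to 8887 CPM in het, 8872 to 9054 in paternal and 8674 to 8867 in maternal libraries, against 9679 to 10139 CPM in wildtype. Most of this sum was ninaE alone, at 7132 to 8530 CPM over the 12 libraries. The 4 neuron markers gave 346 to 369 CPM in het, 362 to 369 in paternal and 306 to 379 in maternal libraries, against 401 to 408 CPM in wildtype. In these 3 sums every library of the AKHR +/- groups lay below every wildtype library, as it did for yellow-b. Directions of the single markers are not given here. The 6 testis markers lay the other way, at 1338 to 1454 CPM in het, 1333 to 1426 in paternal and 1326 to 1594 in maternal libraries, against 1255 to 1312 CPM in wildtype. None of the markers in these 4 lists was at 0 over all libraries, and their part in the fall of yellow-b was not tested. The 3 analysed markers of epidermis and cuticle summed to 84.1 to 90.3 CPM in het, 84.9 to 86.6 in paternal and 85.2 to 94.5 in maternal libraries, against 92.7 to 93.2 CPM in wildtype, with overlap between maternal and wildtype flies. Midgut markers likewise overlapped wildtype in maternal libraries and lay below it in het and paternal libraries. Flight muscle, fat body and haemocyte markers overlapped wildtype in every group.

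Whether the obese parent mattered for yellow-b was asked among the 3 AKHR +/- groups, a contrast that the choice of the gene did not use, although it shares their libraries. No difference passed the quasi-likelihood test of edgeR at a Benjamini-Hochberg adjusted p of 0.05, taken over all tested genes. That fit had no block for the replicate number, and p values with such a block are not given here for yellow-b. The log2 change was -0.06 (SE 0.105, 95% interval -0.27 to 0.16, adjusted p = 1.000) in paternal over het flies, and it turned to 0.027 without paternal replicate 3 and to 0.0068 without het replicate 1. It was 0.20 (SE 0.103, interval -0.02 to 0.41, adjusted p = 0.993) in maternal over het flies. In maternal over paternal flies it was 0.25 (SE 0.103, interval 0.04 to 0.47), with an unadjusted p of 0.0246, under 0.05 as for 2.75% of tested genes, and an adjusted p of 1.000. In CPM the maternal libraries did not overlap the het ones, but the nearest were 10.9 CPM in maternal replicate 2 and 10.8 CPM in het replicate 1, and the groups overlapped in deposited FPKM, at 6.58 in the first and 6.59 in the second of these libraries. They also overlapped per 100 reads of the other members, at 3.17 in maternal replicate 1 and 3.18 in het replicate 1. Maternal and paternal libraries did not overlap on any of these scales. In CPM the same separation, with maternal libraries higher, was found for 4.28% of tested genes against het and for 3.25% against paternal flies. Few genes passed in these comparisons at all: 0.00781% of tested genes in paternal over het, and 0.0156% each in maternal over het and in maternal over paternal flies.

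None of the other 6 members passed the test in any of the 6 comparisons with edgeR, with DESeq2 or with limma-trend. The shares of all tested genes that edgeR called over wildtype, 0.593% for het, 0.523% for paternal and 0.344% for maternal, would give less than 1 gene among 6. With the replicate number as a block edgeR called 284, 206 and 227 genes in place of 76, 67 and 44, and still none of the 6. On arm 2L, which holds yellow-c, 2.16%, 2.08% and 1.34% of tested genes were called. At an unadjusted p under 0.05 there was 1 of the 6 in het over wildtype, yellow-h, beside 10.7% of all tested genes, and 1 in maternal over het, yellow-f, beside 4.15% of all tested genes, with 0 in the other 4 comparisons. The median log2 change of the 6 genes was -0.08 for het, -0.04 for paternal and -0.01 for maternal flies over wildtype, beside -0.01 over all tested genes in each comparison. Their changes ran from -0.19 to 0.08 for het, from -0.11 to 0.08 for paternal and from -0.15 to 0.04 for maternal flies over wildtype.

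**Figure D3:**
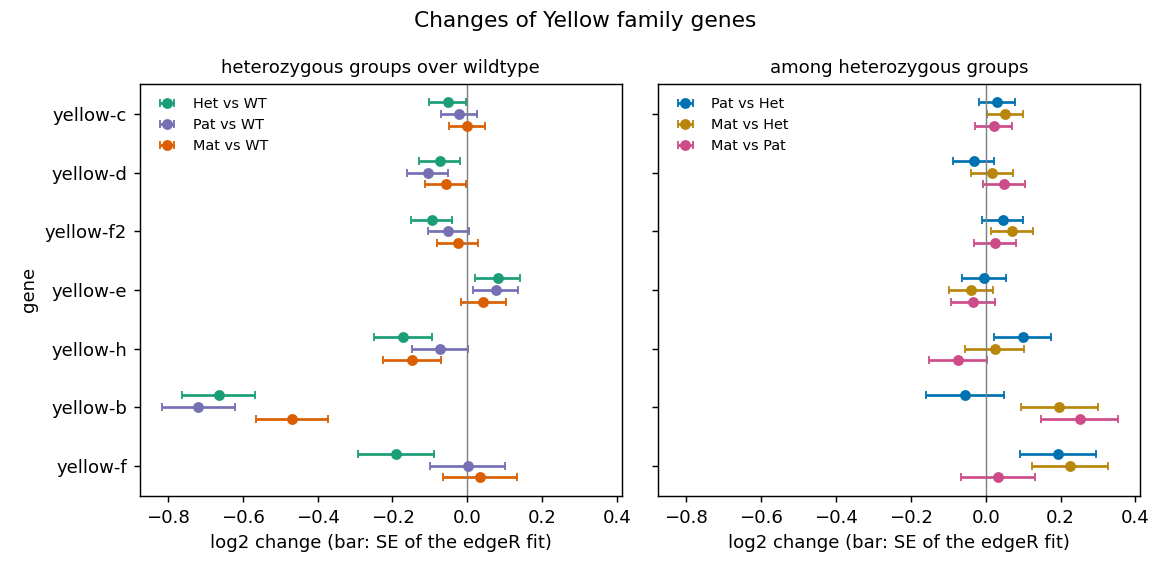
Log2 changes of the 7 members in the edgeR fit, with bars for the standard error; the left panel shows the AKHR +/- groups over wildtype and the right panel the comparisons among them. Only yellow-b lies beyond -0.4 in the left panel, at -0.66, -0.72 and -0.47, and these 3 values chose the family.

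The dopachrome-converting pair yellow-f and yellow-f2 lies on 3R, both on the minus strand and 193 bases apart, at chr3R:8817171-8818923 and chr3R:8819117-8820869 of dm3. In FPKM the ratio of yellow-f2 to yellow-f was 5.85 to 7.55 over the 12 libraries. For yellow-f the libraries had 8.29, 8.44 and 7.73 CPM for het, 10.5, 8.69 and 8.80 for paternal and 10.3, 9.20 and 9.13 for maternal flies, against 10.3, 8.87 and 8.74 CPM in wildtype. The het libraries lay below those of each other group, and paternal, maternal and wildtype values overlapped. Libraries of het flies likewise lay below all wildtype ones for 9.63% of tested genes, and paternal as well as maternal libraries lay above all het ones for 4.28% each. Its log2 change was -0.19 (SE 0.102, 95% interval -0.40 to 0.02, edgeR adjusted p = 0.521) in het over wildtype. In maternal over het flies the change of yellow-f was 0.23 (SE 0.102, interval 0.01 to 0.44), with an unadjusted p of 0.0394 and an adjusted p of 0.993.

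For yellow-f2 the libraries had 58.3, 57.2 and 59.3 CPM for het, 62.2, 60.4 and 57.7 for paternal and 63.6, 63.5 and 56.2 for maternal flies, against 63.8, 61.1 and 61.8 CPM in wildtype. Het libraries lay below wildtype, within the 9.63% of tested genes of that pattern, but maternal replicate 3 was lower than every het library. The log2 change of yellow-f2 in het over wildtype was -0.10 (SE 0.0555, 95% interval -0.21 to 0.02, edgeR adjusted p = 0.560). Over the 6 comparisons the 95% intervals for yellow-f2 reached no further than -0.21 and 0.19. The gene yellow-f shares 95 bases with CG31342 on the opposite strand, which had log2 changes of -0.13, -0.02 and -0.11 over wildtype (adjusted p = 0.405, 0.955 and 0.424), while no listed gene overlaps yellow-f2.

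On the fourth chromosome yellow-h (chr4:248550-251054) had the lowest mean FPKM over the 12 libraries but for yellow-b and yellow-f. In wildtype alone yellow-h, with a mean of 9.21 FPKM, lay below yellow-b, with 9.42 FPKM. It had 12.2, 12.4 and 12.6 CPM in het, 13.0, 14.8 and 12.2 in paternal and 12.2, 12.7 and 12.8 in maternal libraries, against 14.3, 13.9 and 13.6 CPM in wildtype. Het and maternal libraries lay below all wildtype ones, a pattern of 9.63% and 7.86% of tested genes, and paternal libraries overlapped them. Its log2 change was -0.17 (SE 0.0767, 95% interval -0.33 to -0.01, unadjusted p = 0.0376, edgeR adjusted p = 0.424) in het over wildtype. In paternal and maternal flies over wildtype it was -0.07 (SE 0.0759) and -0.15 (SE 0.0769), with adjusted p of 0.800 and 0.439. The spread of yellow-h within groups, 0.08 on the log2 scale, was no larger than the 0.09 that counting error gives.

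The family's most abundant gene, yellow-c, lies on 2L at chr2L:15035471-15037842, 1.72 Mb from yellow-b. Its libraries had 129, 122 and 123 CPM for het, 130, 131 and 121 for paternal and 132, 128 and 127 for maternal flies, against 131, 124 and 133 CPM in wildtype. All groups overlapped. The log2 change of yellow-c was -0.05 (95% interval -0.15 to 0.05, adjusted p = 0.759) for het, -0.02 (interval -0.12 to 0.08, adjusted p = 0.924) for paternal and 0.00 (interval -0.10 to 0.10, adjusted p = 0.996) for maternal flies over wildtype in edgeR. Over 1550 of its bases yellow-c overlaps l(2)35Bg on the opposite strand, so their reads may be shared. That gene had 698 to 867 reads in each library and changes of 0.01, -0.01 and -0.09 over wildtype (adjusted p = 0.970, 0.972 and 0.535).

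On 2R yellow-d (chr2R:19266056-19267961) had 80.7, 77.0 and 75.7 CPM in het, 77.2, 76.6 and 74.6 in paternal and 81.3, 82.0 and 72.8 in maternal libraries, against 79.7, 79.9 and 86.1 CPM in wildtype. Paternal libraries lay below all wildtype ones, as for 9.86% of tested genes, and the other groups overlapped wildtype. In paternal over wildtype its log2 change was -0.11 (SE 0.0547, 95% interval -0.22 to 0.01, edgeR adjusted p = 0.511). All 1906 bases of yellow-d fall within the interval of CG13551 on the other strand, of which only 821 bases are exonic. How many exonic bases the genes share was not analysed here. That gene had a log2 change of -0.09 (SE 0.0657, adjusted p = 0.701) in the same comparison.

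Known from larval colour in the silkworm, yellow-e (chr3R:9235264-9241006, minus strand) was the member with positive changes in all 3 comparisons with wildtype. It had 51.6, 47.3 and 52.6 CPM in het, 50.1, 48.8 and 51.9 in paternal and 50.3, 46.0 and 51.2 in maternal libraries, against 45.6, 47.5 and 50.01 CPM in wildtype, with overlap throughout. Its log2 change was 0.08 (SE 0.0595) for het, 0.08 (SE 0.0594) for paternal and 0.04 (SE 0.0597) for maternal flies over wildtype, with edgeR adjusted p of 0.671, 0.711 and 0.803. Beside it on the same strand, 2574 bases away, yellow-e2 had only 29 to 48 reads in each library, or 1.56 to 2.58 CPM. The eggshell gene yellow-g, on 3L, had 16 to 34 reads. Of 4 further family names, these 2 were analysed here. With edgeR, DESeq2 or limma-trend 0 passed in the 6 comparisons, and 0 had an unadjusted p under 0.05 in edgeR. Of all tested genes edgeR called 0.593%, 0.523% and 0.344% in het, paternal and maternal flies over wildtype, so 2 genes would rarely hold a call.

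Across the 12 libraries the log2 CPM of yellow-b had a Pearson r of 0.59 with yellow-h, between 0.36 and 0.45 with yellow-c, yellow-d, yellow-f and yellow-f2, and -0.52 with yellow-e. The pair yellow-f and yellow-f2 had r = 0.62 and yellow-d and yellow-f2 r = 0.67. These are descriptions over 12 points that share groups, depth and scaling. The genes whose pattern was most like that of yellow-b, by Pearson r among 12302 other tested genes of at least 1 CPM, were CG4238 (0.93), CG3528 (0.92), CG15282 (0.92), CG10103 (0.90) and Idgf2 (0.90). CG10103 is on 3L and the other 4 are on 2L, the arm of 2454 of the 12809 tested genes. Of the 76 genes called in het over wildtype, 53 were on that arm too. The ranking uses the same libraries in which yellow-b fell, so it favours genes that were low in the AKHR +/- groups. CG3528 averaged 12.9 ± 1.14 CPM for het, 13.5 ± 0.0880 for paternal and 16.8 ± 0.943 for maternal flies, against 22.8 ± 2.33 CPM in wildtype (SD, n = 3 each). It lies 14.2 Mb from yellow-b. CG4238, 14.7 Mb away, had log2 changes of -0.23, -0.20 and -0.18, and CG10103 of -0.14, -0.14 and -0.11, in het, paternal and maternal flies over wildtype. CG15282, 2.04 Mb away, averaged 1.77 ± 0.160 CPM for het, 1.73 ± 0.262 for paternal and 2.09 ± 0.172 for maternal flies, against 2.78 ± 0.0652 CPM in wildtype. Idgf2, which encodes a chitinase-like growth factor, lies 0.307 Mb away and had smaller log2 changes of -0.10, -0.13 and -0.09 in het, paternal and maternal flies over wildtype.

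The chromosomal setting of yellow-b was described next. It lies 10.0 Mb from AkhR on the same arm. Of the 182 other tested genes within 1000 kb of yellow-b, 0 passed edgeR's test in het, paternal or maternal flies over wildtype, where 2.16%, 2.08% and 1.34% of the tested genes of arm 2L did. Unadjusted p was under 0.05 for 16, 13 and 19 of them, beside 10.7%, 10.5% and 12.1% of all tested genes and 15.7%, 15.2% and 16.7% of those on the arm. DESeq2 called 1 (BicC) in het over wildtype and 0 in the other comparisons, and limma-trend called 0. Calls of edgeR were uneven along the arm in het, paternal and maternal flies over wildtype. On the side of yellow-b toward AkhR there were 48, 47 and 31 of them, and on the other side 4, 3 and 1. The share of the whole arm is therefore not the rate for the region around yellow-b. The nearest genes that passed toward AkhR lay 4306, 2913 and 4702 kb away in het, paternal and maternal flies over wildtype: CG5421, CG33307 and CG14945. On the other side they were Arr1, Acp36DE and CG14401, at 1320, 1598 and 4112 kb. Of these, Arr1 and Acp36DE are a photoreceptor arrestin and an accessory gland protein. Both are themselves terms of the marker sums given above, and a link to the fall of yellow-b was not tested.

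**Figure D4:**
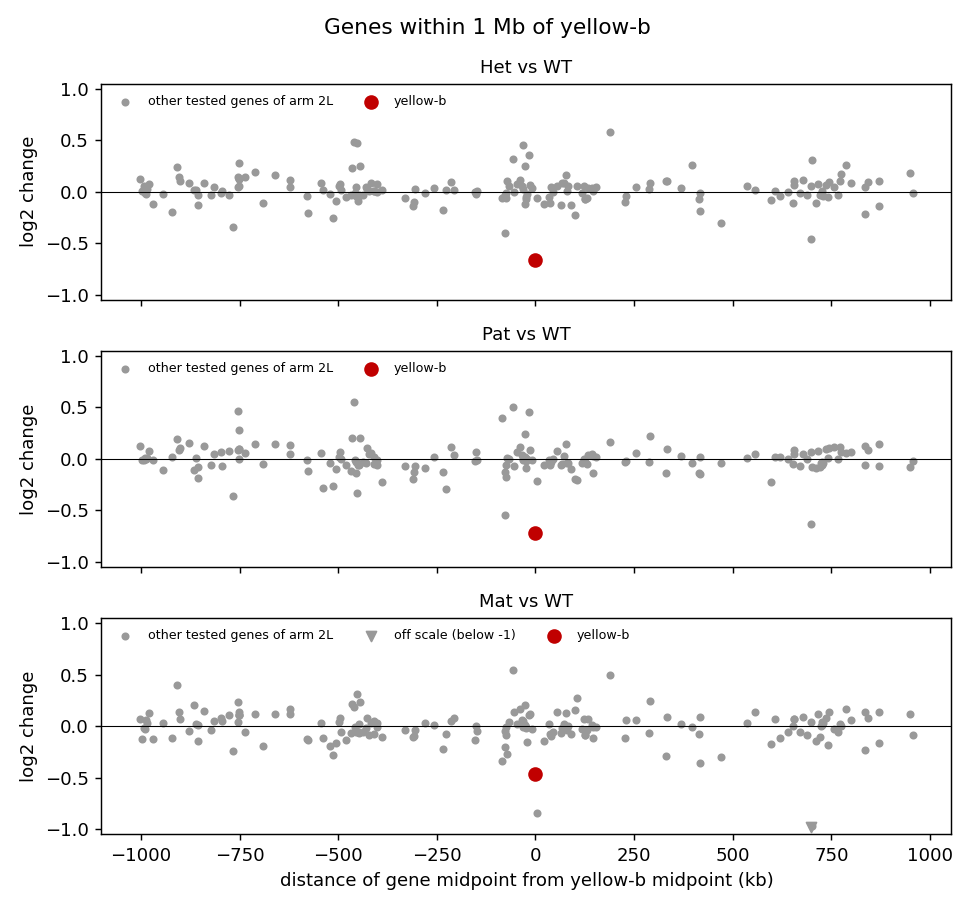
Log2 change of each tested gene within 1000 kb of yellow-b against the distance of its midpoint from that of yellow-b in kb, for het, paternal and maternal flies over wildtype. The red point is yellow-b at -0.66, -0.72 and -0.47 among 182 other genes, and a triangle in the maternal panel marks 1 gene below -1, CG6639 at -4.51 (SE 2.82).

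On the side toward AkhR, CG17912 ends 632 bases before yellow-b and had 46.3 ± 1.31 CPM for het, 44.7 ± 2.42 for paternal and 44.1 ± 1.82 for maternal flies, against 45.1 ± 3.14 CPM in wildtype (SD, n = 3 each). Its log2 change was 0.04, -0.01 and -0.03 over wildtype, with edgeR adjusted p of 0.878, 0.964 and 0.877. Of the 10 genes beside yellow-b, 5 on each side, 0 passed in any of the 3 comparisons with wildtype in edgeR, DESeq2 or limma-trend. In the same order of groups edgeR called 2.16%, 2.08% and 1.34% of the tested genes of arm 2L, so 10 genes would hold few or no calls. With the replicate number as a block, edgeR called 1 of the 10, Mhc, in maternal over wildtype flies. On the other side CG13278 is transcribed toward yellow-b and shares 100 bases with its end (16758184 to 16758283). It had 4 to 15 reads in a library, against 170 to 333 for yellow-b. Further on, Mhc, the muscle myosin heavy chain, had log2 changes of -0.12, -0.06 and -0.14 in het, paternal and maternal flies over wildtype, with adjusted p of 0.715, 0.886 and 0.566. The gene ChLD3, 11726 bases before yellow-b, had positive log2 changes of 0.36 (SE 0.133, adjusted p = 0.317), 0.46 (SE 0.132, adjusted p = 0.172) and 0.11 (SE 0.138, adjusted p = 0.776). The remaining 6 genes, CG17904, glu, LSm7, Cyt-b5-r, CG17928 and Ugt36Ba, had log2 changes between -0.15 and 0.12. The authors' deposited tables name an exon of altered usage for 71 to 99 genes each, in a series of 13040 genes, and for 0 of the 7 members. At so small a share 7 genes would rarely include 1, so nothing is read from this for the members.

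Other genes of pigment synthesis were set beside the family. All 16 names of the melanin and sclerotin list were found and 15 were tested. Of these, 0 passed in any of the 6 comparisons, whether by edgeR, by DESeq2 or by limma-trend. In edgeR 0 were at an unadjusted p under 0.05. Over wildtype 10.7%, 10.5% and 12.1% of all tested genes were, in het, paternal and maternal flies. In the same order edgeR called 0.593%, 0.523% and 0.344% of all tested genes. At such shares 15 genes would rarely hold a call, so nothing is read from the lack of calls. Log2 changes in the list ran from -0.17 to 0.14, -0.20 to 0.17 and -0.33 to 0.14 in that order. The median log2 change of the list was -0.03 for het, -0.02 for paternal and -0.02 for maternal flies over wildtype, beside -0.01 over all tested genes in each. For ple, the tyrosine hydroxylase that opens the pathway, the mean was 21.9 ± 2.16 FPKM for het, 22.5 ± 2.38 for paternal and 22.9 ± 4.96 for maternal flies, against 22.7 ± 1.09 FPKM in wildtype. Ddc, which makes dopamine and lies on 2L, had 27.6 ± 0.527 FPKM for het, 28.02 ± 1.23 for paternal and 27.4 ± 1.22 for maternal flies, against 27.7 ± 0.419 FPKM in wildtype (SD, n = 3 each). The enzyme genes e and t, which join dopamine to beta-alanine and split the product again, had log2 changes between -0.06 and 0.10 over wildtype. The phenoloxidase genes proPO-A1 and PO45 (now PPO2), expressed in haemocytes, had changes between 0.02 and 0.17. These 6 genes were chosen for their roles after the values were seen.

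Activation of phenoloxidase runs through serine proteases and serpins. All 10 listed genes were tested and 0 passed in any comparison with edgeR, DESeq2 or limma-trend. Of all tested genes edgeR called 0.593%, 0.523% and 0.344% in het, paternal and maternal flies over wildtype. The medians of the list were 0.00, 0.01 and 0.04 in the same order. At an unadjusted p under 0.05 in edgeR there was 1 gene, the protease gene grass (0.0312), in maternal over het flies. This stood beside 4.15% of all tested genes. Of 12 regulators that pattern pigment, such as bab1, bab2, Abd-B and dsx, 0 passed with any of the 3 tools and 0 had an unadjusted p under 0.05. Of 16 eggshell genes 5 were analysed here and 0 passed or had an unadjusted p under 0.05. The largest mean among the 5 was 8.34 FPKM, for the chorion gene Cp15. An unadjusted p under 0.05 was found for 10.7%, 10.5% and 12.1% of all tested genes in het, paternal and maternal flies over wildtype. With so few genes called at all, nothing is read from the lack of calls in these short lists.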

How the data were processed

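RNA-seq of 12 libraries was analysed from 5 deposited tables, each comparing a pair of groups; libraries present in several tables had identical values. Per the file headers, the authors deposited read counts per gene, regularised log2 values (not used), FPKM, log2 fold changes, and scores for adjusted p (not used), with coordinates on the D_melanogaster_Apr_2006 assembly. Exonic gene lengths are also deposited, as a column in bases. Novoalign, DESeq and the build dm3 appear in the submitters' processing notes, with no version; annotation and strand setting are not given in the labels. Starts were converted to count from 1. Of 13040 genes, 58 lacked counts in some library and were left out.

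Counts were tested with edgeR 4.0.16 (R 4.3.3): filterByExpr (minimum count 10, total 15), TMM, a robust quasi-likelihood fit of group means over all 12 libraries, 6 contrasts, Benjamini-Hochberg adjustment and a threshold of 0.05. Standard errors were taken from the log2 change and its F value. The fit recovered known changes in data made for the purpose, set in paternal over wildtype only and in well-counted genes. Those changes were larger than any given here for a member, so they do not show how well smaller ones are found. Alternatives used DESeq2 1.42.0, limma 3.58.1 with a prior count of 2, and those named in the closing section. The authors' log2 values were copied as deposited. Likeness is Pearson r of log2 CPM (prior count 2).

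Members and lists were chosen with earlier results of these data known. Every analysed member was named, with the 5 genes on each side of yellow-b, genes overlapping a member and the 5 genes most like it in pattern. List genes were to be named if they passed. Symbols are those of the files; 12473 gene IDs matched a table of current names, and serpins Spn28D and Spn28Dc were 1 row.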

Additional observations from a re-analysis of the deposited data

How the results depend on the processing

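The fall of yellow-b below wildtype chose the family, so its values under other settings are a description and no support for the fall. Its log2 change kept its direction under every alternative run. With all libraries it was -0.66 to -0.64 in het, -0.72 to -0.70 in paternal and -0.47 to -0.45 in maternal flies over wildtype. Leaving out 1 library at a time gave -0.76 to -0.60, -0.81 to -0.64 and -0.56 to -0.40. The other 6 members passed in 0 of 6 comparisons under each alternative. The number of genes called in het, paternal and maternal flies over wildtype was 76, 67 and 44. It became 123, 104 and 91 with DESeq2, 183, 156 and 27 with only the 6 libraries compared, and 284, 206 and 227 with the replicate number as a block; the causes were not tested. With 1 library left out it ranged from 41 (without het replicate 1) to 64 in het, from 33 (without paternal replicate 1) to 45 in paternal and from 27 (without wildtype replicate 1) to 116 (without maternal replicate 3) in maternal flies over wildtype. It was also 45 in het over wildtype without wildtype replicate 2. In paternal over wildtype it was 41, 34 and 39 without wildtype replicates 1, 2 and 3, and 36 without paternal replicate 3. Such fits gave 1 to 2 genes in paternal over het, with 2 without het replicate 3, and 2 to 3 in maternal over het flies.

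Same-numbered libraries deviated together in 11 of 18 pairs at r above 0.1 (mean r 0.12, and -0.06 for other numbers). For 11 of 12 libraries the mean r with libraries of other groups was highest for those of their own number. The design has 1 sample set per experiment but does not say that the numbers mark the sets. With 7 pairs at or under 0.1, a cut that was a choice, the block was kept as an alternative. The main fit therefore leaves variation shared by same-numbered libraries in its spread. Its p values for yellow-b among the AKHR +/- groups carry this limit. Under the block BicC in het and Mhc in maternal flies over wildtype passed within 1000 kb of yellow-b, and BicC also with the 6 libraries compared.

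Small changes turned sign, each in a comparison without a call. For yellow-c in maternal over wildtype the change of -0.00086 became 0.0147 without scaling, 0.00443 without the filter, 0.00370 with DESeq2 and 0.00721 with 6 libraries. With 1 library left out, yellow-b in paternal over het ranged from -0.11 to 0.027 (without paternal replicate 3). In paternal over wildtype yellow-c ranged from -0.053 to 0.014 and yellow-f from -0.087 to 0.085. In maternal over wildtype the ranges were -0.032 to 0.023 for yellow-c, -0.083 to 0.00089 for yellow-d, -0.022 to 0.12 for yellow-f and -0.055 to 0.036 for yellow-f2. Over het, yellow-e ranged from -0.051 to 0.027 in paternal and from -0.085 to 0.012 in maternal flies, and yellow-d from -0.0100 to 0.074 in maternal flies. In maternal over paternal flies the ranges were -0.00968 to 0.041 for yellow-c, -0.059 to 0.016 for yellow-e, -0.023 to 0.13 for yellow-f, -0.00377 to 0.085 for yellow-f2 and -0.13 to 0.00121 for yellow-h. Counting error alone spreads yellow-b by 0.10 and yellow-f by 0.11 on the log2 scale, and the low genes yellow-e2 and yellow-g by 0.23 and 0.29.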
